A study of Mus musculus with 6 samples.

Results

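The genes described here are 10 imprinted genes of fetal growth, Igf2, H19, Igf2r, Dlk1, Meg3, Cdkn1c, Peg3, Grb10, Mest and Plagl1. They were chosen by symbol, and all 10 were found among the 23420 genes of the deposited files. RNA sequencing was run on mouse palatal tissue at E14.5 (the day of gestation), from the region that goes on to build the anterior hard palate. The controls (3 libraries) were Shox2Cre/+;Nkx2.5F/F and the mutants (3 libraries) Shox2Cre/-;Nkx2.5F/F, on C57BL/6. All 6 libraries thus came from tissue with a Cre allele of Shox2 and a floxed Nkx2.5 gene on both chromosomes. The genotypes differ in the other Shox2 allele, wild-type in controls and null in mutants, so the control is not a wild-type mouse although its libraries are titled WT. Cre made from the Shox2 locus acts where Shox2 is active, so a floxed gene can be cut there in both groups. Whether 1 embryo or a pool went into each library is not stated by the labels. The p-values thus cover the spread from library to library, which need not be that between embryos.

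Imprinted genes are transcribed mainly or only from the allele inherited from 1 parent, and the choice is set by DNA methylation laid down in the germ line at control regions that often serve several neighbouring genes. Many of these genes act on growth before birth: paternally expressed members such as Igf2, Dlk1, Peg3, Mest and Plagl1 are mostly linked to more growth, and maternally expressed members such as Igf2r, Grb10, Cdkn1c and H19 mostly restrain it. They are abundant in embryonic mesenchyme, and their levels fall in many organs around and after birth. Counts from a gene cannot tell the parental alleles apart, so none of the values below measures imprinting itself.

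A window around a start site of each of the 5 genes that passed the test below is shown first, so that the elements searched for can be seen beside the genes that carry the calls. RefSeq entries on GRCm38.p6 were matched for 8 of the 10 genes, with 15 start sites in all. Each window runs from 250 bases before the start site to 50 after it, and is written along the gene's own strand. Where a gene had several entries, a window that holds a match was chosen: the other Grb10 and Meg3 windows and another Mest window held none, with 9, 1 and 8 CpG dinucleotides. Capitals mark matches, on either strand, to 2 motifs: GGGGCCCC, the core of the site described for the zinc finger factor PLAGL1, and TGCCGC, the hexamer that ZFP57 binds when it is methylated.
Dlk1 (chr12:109452573-109452872, plus strand): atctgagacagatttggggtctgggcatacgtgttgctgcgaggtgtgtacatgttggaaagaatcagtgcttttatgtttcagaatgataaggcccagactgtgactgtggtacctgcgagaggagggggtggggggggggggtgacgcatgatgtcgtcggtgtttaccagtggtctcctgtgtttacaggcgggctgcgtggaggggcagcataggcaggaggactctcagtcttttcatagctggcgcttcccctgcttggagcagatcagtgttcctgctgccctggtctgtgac
Meg3 (chr12:109540746-109541045, plus strand): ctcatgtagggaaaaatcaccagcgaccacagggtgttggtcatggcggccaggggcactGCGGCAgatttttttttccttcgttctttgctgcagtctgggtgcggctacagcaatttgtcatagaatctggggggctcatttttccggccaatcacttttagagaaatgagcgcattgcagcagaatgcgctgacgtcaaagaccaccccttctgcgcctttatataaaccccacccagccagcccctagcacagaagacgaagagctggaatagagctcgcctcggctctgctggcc
Grb10 (chr11:12037371-12037670, minus strand): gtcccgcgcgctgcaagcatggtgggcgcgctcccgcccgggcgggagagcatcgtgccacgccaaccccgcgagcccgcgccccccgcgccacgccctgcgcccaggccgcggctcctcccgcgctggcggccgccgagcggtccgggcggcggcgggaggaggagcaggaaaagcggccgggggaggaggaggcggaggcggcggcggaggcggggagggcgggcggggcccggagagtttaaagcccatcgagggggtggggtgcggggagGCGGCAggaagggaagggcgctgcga
Peg3 (chr7:6730370-6730669, minus strand): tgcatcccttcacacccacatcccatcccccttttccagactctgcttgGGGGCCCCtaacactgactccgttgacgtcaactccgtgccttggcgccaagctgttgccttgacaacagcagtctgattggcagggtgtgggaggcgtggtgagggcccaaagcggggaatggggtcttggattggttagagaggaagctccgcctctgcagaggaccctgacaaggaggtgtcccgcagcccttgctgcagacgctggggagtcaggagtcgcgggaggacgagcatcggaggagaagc
Mest (chr6:30737800-30738099, plus strand): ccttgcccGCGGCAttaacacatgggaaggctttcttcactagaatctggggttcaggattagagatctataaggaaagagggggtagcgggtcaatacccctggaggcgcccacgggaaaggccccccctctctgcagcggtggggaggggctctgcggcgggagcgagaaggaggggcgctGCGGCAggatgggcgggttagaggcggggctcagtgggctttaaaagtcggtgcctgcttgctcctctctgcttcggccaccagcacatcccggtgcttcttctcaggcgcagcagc

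The Peg3 window held the only GGGGCCCC among the 15 windows, at 201 bases before the start site. That motif was in 1.33% of 19848 promoter windows of the same length. TGCCGC was in 6 of the 15 windows, belonging to 5 genes, against 14.6% of all windows. Of these 6, a pair are Mest windows that share 297 bases and the same matches. In Meg3 it lay at position -190, in Grb10 at +25 and in Mest at -242 and -67. It was also in a window of Igf2 (+31) and of Plagl1 (-90), which did not pass the test below. Since several genes have more than 1 window, the share of all windows is no background for a count of genes. Of the 5 windows shown, that of Grb10 was the richest in CpG, with 45 CpG dinucleotides, against 17 in Mest, 13 in Meg3 and in Peg3, 9 in Dlk1 and a median of 14 over all windows. A match is a run of letters and not evidence of binding.

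Total counts ran from 81950407 to 134813429 in the controls and from 52668242 to 53331397 in the mutants, so depth and genotype cannot be told apart. Counts between 5 and 50 were even numbers in 99.7% of cases in mutant 1, 73% in mutant 2 and 63.6% to 65.9% in the other libraries. Shox2, the targeted gene, was at 68.2 to 88.2 CPM (counts scaled to library size by TMM) in the controls and at 3.13 to 5.3 CPM in the mutants. All 10 palatal mesenchyme markers were detected, with a summed level of 2202 to 2370 CPM in controls and 1657 to 1891 CPM in mutants. Of these markers, 4 were called lower and 1 higher, beside 21.7% and 24.1% of all 16604 genes tested. Markers of other cells moved with genotype, in 10 of 10 epithelial, 9 of 9 macrophage and 8 of 8 motile cilium genes called higher and in 9 of 9 tested osteoblast genes called lower. Their summed levels were 1006 to 1683 CPM in controls and 5960 to 7747 CPM in mutants for epithelium, 78.0 to 138.9 and 344.7 to 454.8 CPM for macrophages, 33.9 to 168 and 754 to 892 CPM for motile cilia, and 971 to 3462 and 412 to 531 CPM for osteoblasts. The 3 embryonic globin genes summed to 183 to 618 CPM in controls and 5.55 to 19.7 CPM in mutants. With 21.7% of all genes tested called lower, the cartilage count given next is near the background. Of 8 tested genes each, 5 of skeletal muscle, 3 of nerve and glia and 2 of cartilage were called lower. Their summed levels were 9.93 to 58.1 CPM in controls and 5.38 to 11.3 CPM in mutants for muscle, 82.3 to 160.4 and 67.9 to 102.9 CPM for nerve and glia, and 319 to 430.2 and 209.6 to 219.8 CPM for cartilage. Of 8 endothelial genes, edgeR, DESeq2 and limma-voom each called 0, with 0, 1 and 0 genes at an unadjusted p under 0.05. Their sum was 444 to 594 CPM in controls and 522 to 706 CPM in mutants. No marker in these lists was at 0 in all libraries. In bulk tissue, fewer cells of a type and less RNA per cell cannot be told apart. Sex markers differed too: Xist, transcribed from the inactive X chromosome, was at 232, 843 and 692 CPM in controls 1, 2 and 3 and at 0.261 to 0.333 CPM in the mutants. The 4 Y-linked genes summed to 192, 36.2 and 87.5 CPM in the controls and to 199 to 244 CPM in the mutants. Every control thus held both Xist and Y-linked counts. On Xist and on the Y-linked sum the groups did not overlap, so sex markers and genotype cannot be told apart. A fit with the Y-linked level as a covariate was run, but it cannot separate them, since that level itself differs by genotype. The part of the cell type and sex marker differences in the results was otherwise not tested.

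All 10 genes passed the filter on low counts and lay between percentile 95.5 and the top of the levels among the 16604 genes tested. Together they took 1.5%, 2.015% and 1.684% of all counts in controls 1, 2 and 3 and 1.389%, 1.517% and 1.558% in the mutants. Per kilobase of annotated exon, H19 was the highest in the controls at 2935 ± 473 CPM per kb (SD, n = 3). Cdkn1c (643 ± 204) and Igf2 (616 ± 132.1) followed in CPM per kb, and they did not differ beyond their spread. Mest (420 ± 42.8) and Grb10 (206 ± 19.4) came next, then Plagl1 (94.3 ± 17.5) and Dlk1 (86 ± 22.5), which overlapped. Peg3 (35.5 ± 3.98) and Igf2r (34.6 ± 4.5) were level within their spread, and Meg3 was the lowest at 9.2 ± 0.702 CPM per kb. In the mutants Igf2 (521 ± 45.7) stood above Cdkn1c (396 ± 72.1), and Dlk1 (128 ± 21.1) lay beside Grb10 (134 ± 6.04) in CPM per kb. The lengths come from the reference annotation, in which Meg3 has 18089 exonic bases over all its transcripts. The annotation behind the counts was not given in the sources used here.

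**Figure D1:**
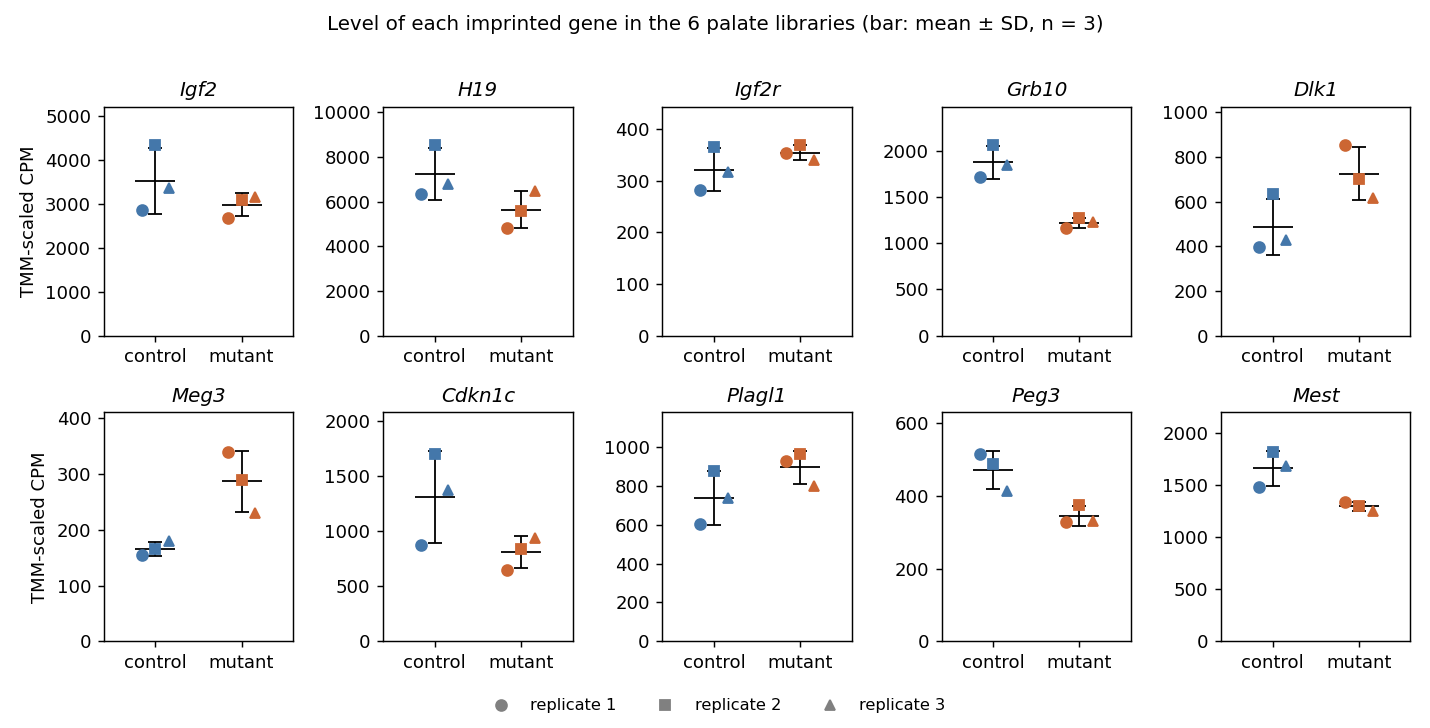
Level of each of the 10 genes in TMM-scaled CPM (vertical axes, from 0) in the 3 control and 3 mutant libraries, with 1 marker per library and bars for mean ± SD. The groups do not overlap for Grb10, Meg3, Peg3 and Mest, and control 1 is the lowest control for 9 of the 10 genes.

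Mutant against control, 5 of the 10 genes passed the edgeR test at an adjusted p of 0.05: Meg3 and Dlk1 rose, and Grb10, Peg3 and Mest fell. Igf2, H19, Igf2r, Cdkn1c and Plagl1 did not pass. This share stands beside 45.8% of all 16604 genes tested (24.1% higher and 21.7% lower), and beside 53.5% of the 744 tested genes at or above the level of the lowest of the 10. The count is near the background. Groups did not overlap for 4 of the 10 genes, against 58.9% of all tested genes (29.7% with the mutants higher and 29.2% lower). The median log2 change, mutant over control, was -0.3 over the 10 genes and -0.0043 over all tested genes, and the median absolute value was 0.41 against 0.38. Against a 1.5-fold threshold (edgeR glmTreat), 0 of the 10 passed, where 14.9% of all genes (11.8% higher and 3.04% lower) and 6.99% of the 744 genes of like level did, and 1 had an unadjusted p under 0.05. The adjusted p under that threshold ran from 0.157 for Meg3 to 1.0. Under a correction for GC content and length that was not recentred, the median of all genes moved to -0.13, all genes split into 3286 higher and 5200 lower in place of 3999 and 3607, and the 10 genes into 1 higher and 6 lower. With control 3, mutant 2 or mutant 3 left out, 3 of the 10 passed.

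Alternative settings named beside single genes below are examples, not a full list of those that changed a call. The background moved with them. Over all genes the share called was 44.3% with library-size scaling alone, 50.5% by DESeq2, 45.7% by limma-voom, 38.3% with no filter and 48.3% with a filter of 1 CPM in 3 libraries. Leaving out a library gave 44.4%, 35.5% and 36.5% without controls 1, 2 and 3, and 45.1%, 34.1% and 36.9% without mutants 1, 2 and 3. It was 54.1% with replicate 1 of both groups left out, with the replicate number in the fit 42.3%, and with the Y-linked covariate 30.2%. The GC and length correction gave 46.0% centred and 51.5% uncentred.

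**Figure D2:**
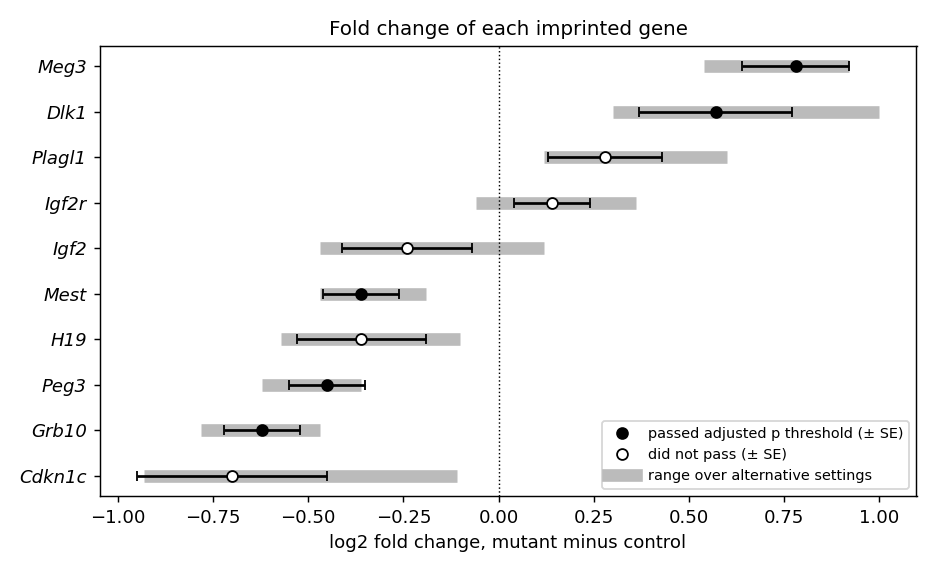
Log2 fold change of mutant over control for each gene (horizontal axis, points with SE, filled where the edgeR test was passed) and its range over 17 alternative settings (grey bars). The bars of Igf2 and Igf2r cross 0, and those of the other 8 genes stay on 1 side.

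Igf2, the fetal insulin-like growth factor, lies on chromosome 7 from 142650766 to 142666816 (minus strand, GENCODE M21 on GRCm38). It was at 2861, 4349 and 3373 CPM in controls 1, 2 and 3 and at 2685, 3097 and 3171 CPM in mutants 1, 2 and 3. Control 2 was the highest library, and control 1 lay among the mutants. The mean was 3528 ± 756 CPM in the controls and 2984 ± 262 CPM in the mutants (SD, n = 3 each), a log2 change of -0.24 (SE 0.17, edgeR adjusted p = 0.273). The sign of this value turned with the Y-linked level as a covariate (0.12, edgeR adjusted p = 0.577). It passed with the GC and length correction not recentred (-0.47, edgeR adjusted p = 0.035).

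H19, a maternally expressed long non-coding RNA that shares enhancers with Igf2, lies 72.6 kb away at 142575529 to 142578143. It was at 6331, 8538 and 6793 CPM in the controls and at 4824, 5584 and 6474 CPM in the mutants. Mutant 3 lay above control 1, and the other mutants lay below every control. The log2 change was -0.36 (SE 0.17, edgeR adjusted p = 0.116), and it passed by DESeq2 (adjusted p = 0.037) and with the uncentred correction (-0.57, edgeR adjusted p = 0.0151). H19 and Igf2 together made up 59.4% to 61.4% of the summed level of the 10 genes in controls and 55.8% to 62.7% in mutants. The ratio of H19 to Igf2 counts within a library was 2.21, 1.96 and 2.01 in the controls and 1.8, 1.8 and 2.04 in the mutants. The log2 ratio differed by -0.13 between the groups, which overlapped (exact permutation test, two-sided, p = 0.3). With 3 libraries against 3 this test cannot give a p below 0.1.

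Igf2r, the receptor that carries IGF2 to the lysosome for breakdown, lies on chromosome 17 from 12682406 to 12769664 (minus strand). Its level was 283, 366 and 317 CPM in the controls and 355, 369 and 340 CPM in the mutants. The groups overlapped, since control 2 was above 2 of the mutants. The log2 change was 0.14 (SE 0.1, edgeR adjusted p = 0.299), and its sign turned under the uncentred correction (-0.06, edgeR adjusted p = 0.666). It passed with the Y-linked covariate (0.36, edgeR adjusted p = 0.0367). Set against its ligand, the ratio of Igf2r to Igf2 counts was 0.0988, 0.0842 and 0.094 in the controls and 0.132, 0.119 and 0.107 in the mutants, so that every mutant was above every control. The log2 ratio was higher by 0.37 in the mutants (1.29-fold, exact permutation test, two-sided, p = 0.1, the smallest this design allows). Leaving out any 1 library kept this difference between 0.29 and 0.45.

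Grb10, an adaptor protein that binds insulin and IGF receptors and dampens their signal, lies on chromosome 11 from 11930508 to 12038683 (minus strand). It was at 1713, 2062 and 1843 CPM in the controls and at 1159, 1268 and 1230 CPM in the mutants. Every mutant was below every control, and the mutants lay close together. The mean fell from 1873 ± 177 to 1219 ± 54.9 CPM, a log2 change of -0.62 (SE 0.1, edgeR adjusted p = 0.00254). Of the 17 alternative settings, 16 kept the call, and the 1.5-fold threshold did not (adjusted p = 0.57). Of its neighbours, Ddc, which encodes an enzyme of dopamine and serotonin synthesis, also fell (-1.57, SE 0.23) and Cobl, an actin nucleator, rose (1.36, SE 0.08).

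**Figure D3:**
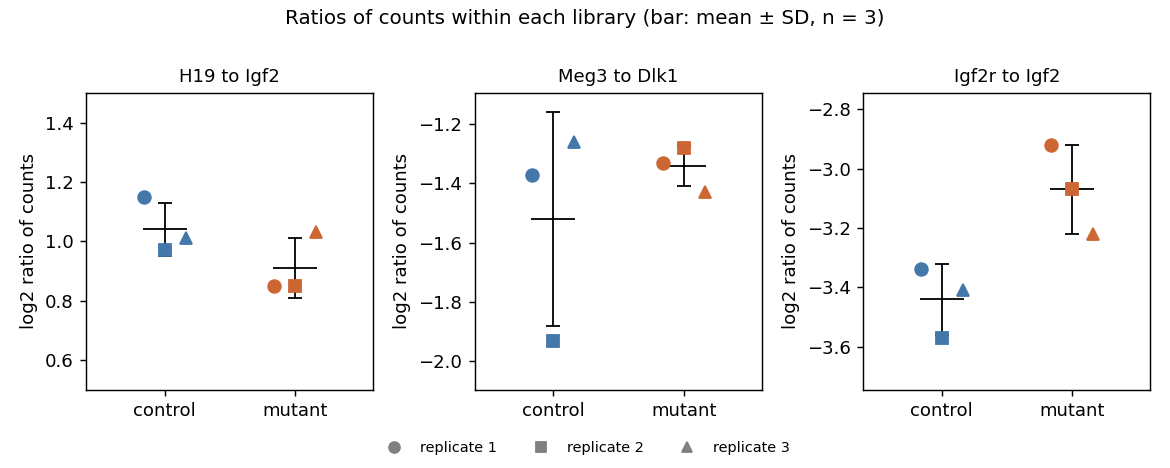
Log2 ratio of counts within each library for 3 gene pairs (vertical axes, each spanning 1 log2 unit), with 1 marker per library and bars for mean ± SD. The groups are apart only for Igf2r to Igf2, where the mutants lie 0.37 higher on average.

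Dlk1 and Meg3 lie 77.7 kb apart on chromosome 12 and come from opposite parental alleles of 1 domain. Dlk1, from 109452823 to 109463336 (plus strand), encodes a membrane protein related to Notch ligands that marks immature mesenchyme. It was at 398, 633 and 430 CPM in the controls and at 854, 702 and 618 CPM in the mutants. Control 2 lay above mutant 3, so the groups overlapped. The mean rose from 487 ± 127 to 725 ± 119 CPM (log2 change 0.57, SE 0.2, edgeR adjusted p = 0.0477). This call sits at the threshold and was lost in 10 of 17 alternative settings. The adjusted p was 0.118 without control 1, 0.137 without control 3, and 0.131, 0.1 and 0.0532 without mutants 1, 2 and 3. It was 0.0622 with the GC and length correction centred and 0.136 without centring. Without replicate 1 of both groups the log2 change was 0.3 (adjusted p = 0.178).

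Meg3, a maternally expressed long non-coding RNA from 109541001 to 109571726 (plus strand), was at 154, 166 and 180 CPM in the controls and at 340, 289 and 230 CPM in the mutants. Every mutant was above every control, and mutant 1 was the highest for Meg3 as for Dlk1. The mean rose from 166 ± 12.7 to 287 ± 55.1 CPM (log2 change 0.78, SE 0.14, edgeR adjusted p = 0.00399), and 16 of 17 alternative settings kept the call. The ratio of Meg3 to Dlk1 counts was 0.388, 0.262 and 0.418 in the controls and 0.398, 0.412 and 0.372 in the mutants. The groups overlapped, with a log2 difference of 0.18 (exact permutation test, two-sided, p = 0.7) that became -0.03 without control 2.

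The other genes of this domain had log2 changes above 0 apart from Begain. None of the 5 passed the edgeR test. Rtl1, Dio3 and Begain, the last with a change below 0, had an unadjusted edgeR p under 0.05. Of all tested genes, 45.8% passed even after adjustment. DESeq2 called Rtl1 (adjusted p = 0.0475) and Dio3 (0.0057), where it called 50.5% of all genes. Dio3 was also called by limma-voom (adjusted p = 0.04). Rtl1, a retrotransposon-derived gene, had a log2 change of 0.79 (SE 0.33, edgeR adjusted p = 0.0843), Rian 0.35 (SE 0.16) and Mirg 0.49 (SE 0.25). Rian and Mirg are further maternal non-coding RNAs of the domain, and mutant 1 was their highest library too, at 495 and 22.3 CPM. Dio3, which encodes an enzyme that inactivates thyroid hormone, was at 13, 34.7 and 37 CPM in the controls and 56.3, 56.1 and 54.5 CPM in the mutants (0.98, SE 0.34, edgeR adjusted p = 0.0522). Dio3 passed in 10 of 17 alternative settings, among them without control 1 (0.62, adjusted p = 0.00119), without control 3 (1.22, adjusted p = 0.045) and with the Y-linked covariate (1.83, adjusted p = 0.0174). Rtl1 passed without mutant 3 (1.04, adjusted p = 0.0303). Begain, at the proximal end, had -0.27 (SE 0.11) and passed with the GC and length correction, centred (-0.32, adjusted p = 0.0437) or not (-0.46, adjusted p = 0.0109). Dlk2, a relative of Dlk1 outside the domain, rose by 0.73 (SE 0.2, edgeR adjusted p = 0.0212). It was not called without control 2 or 3 (adjusted p = 0.0716 and 0.0689) or without mutant 1 or 2 (0.0519 and 0.0517).

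Cdkn1c, an inhibitor of cyclin-dependent kinases that holds cells in exit from the cycle, lies on chromosome 7 from 143458339 to 143461050 (minus strand). It was at 868, 1696 and 1368 CPM in the controls and at 649, 836 and 939 CPM in the mutants. Control 1 lay among the mutants and the other controls lay above all of them. The mean was 1311 ± 417 CPM in the controls and 808 ± 147 CPM in the mutants, a log2 change of -0.7 (SE 0.25, edgeR adjusted p = 0.053), and the gene did not pass. It passed in 7 of 17 alternative settings, among them without control 1 (-0.93, adjusted p = 0.00586), without replicate 1 of both groups (-0.8, adjusted p = 0.00168) and by DESeq2 (-0.69, adjusted p = 0.00665). Adding the Y-linked covariate gave -0.11 (edgeR adjusted p = 0.75). The summed level of the osteoblast markers was 971, 3462 and 2996 CPM in controls 1, 2 and 3. In mutants 1, 2 and 3 it was 412, 481 and 531 CPM. Libraries had the same order within each group as for Cdkn1c. Igf2, H19 and the macrophage sum, which was higher in the mutants, had this order in both groups too. The cartilage and endothelial sums had it in the controls but not in the mutants. The part of osteoblasts or other cells in the result was not tested. Among other inhibitors of cyclin-dependent kinases, Cdkn1a rose from a mean of 56.1 ± 18.0 CPM to 149 ± 8.87 CPM (1.4, SE 0.22, edgeR adjusted p = 0.00236). Cdkn2b rose by 1.04 (SE 0.31, edgeR adjusted p = 0.0276), a call lost without control 3, mutant 1 or mutant 3 (adjusted p = 0.0577, 0.0752 and 0.0677).

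The genes around H19, Igf2 and Cdkn1c on distal chromosome 7 were called in both directions, with 3 of 11 tested neighbours higher and 3 lower, beside 24.1% and 21.7% of all tested genes. Slc22a18, a membrane transporter, rose from 1.98, 2.04 and 2.23 CPM to 6.5, 6.58 and 6.61 CPM (log2 change 1.65, SE 0.17, edgeR adjusted p = 0.000479), and it lies 12.7 kb from Cdkn1c. Osbpl5, a lipid transfer protein gene, rose by 0.63 (SE 0.07). Ascl2, a transcription factor, rose by 1.15 (SE 0.33, edgeR adjusted p = 0.0234) from 0.346, 0.297 and 0.347 CPM in the controls to 0.763, 0.721 and 0.726 CPM in the mutants, and the call was lost without any 1 control (adjusted p = 0.0521, 0.0932 and 0.0751 without controls 1, 2 and 3) and without mutant 2 (0.066) or mutant 3 (0.0631). Nap1l4, a histone chaperone gene (-0.61, SE 0.07), Tssc4 (-0.48, SE 0.08) and Igf2as, which overlaps Igf2 on the other strand (-0.61, SE 0.12), fell. Kcnq1ot1, a non-coding RNA that silences genes near Cdkn1c on the paternal chromosome, had a log2 change of 0.46 (SE 0.22, edgeR adjusted p = 0.122) and passed without mutant 3 (0.65, adjusted p = 0.0253). Cd81 (0.19, SE 0.08), Kcnq1 (0.42, SE 0.26), Phlda2 (-0.43, SE 0.32) and Tnfrsf23 (1.06, SE 0.58) did not pass. Cd81 passed with library-size scaling (0.26, adjusted p = 0.0258), by DESeq2 (0.0474) and with the 1 CPM filter (0.0498), and Tnfrsf23 with the Y-linked covariate (2.6, adjusted p = 0.0367). Whether the counting used strand was not given in the sources used here. Reads of overlapping genes may not be separable. Igf2 shares 98 exonic bases with its antisense gene and 3596 with the gene model Gm49394 on its own strand, and Cdkn1c shares 625 with the antisense model Gm44732.

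**Figure D4:**
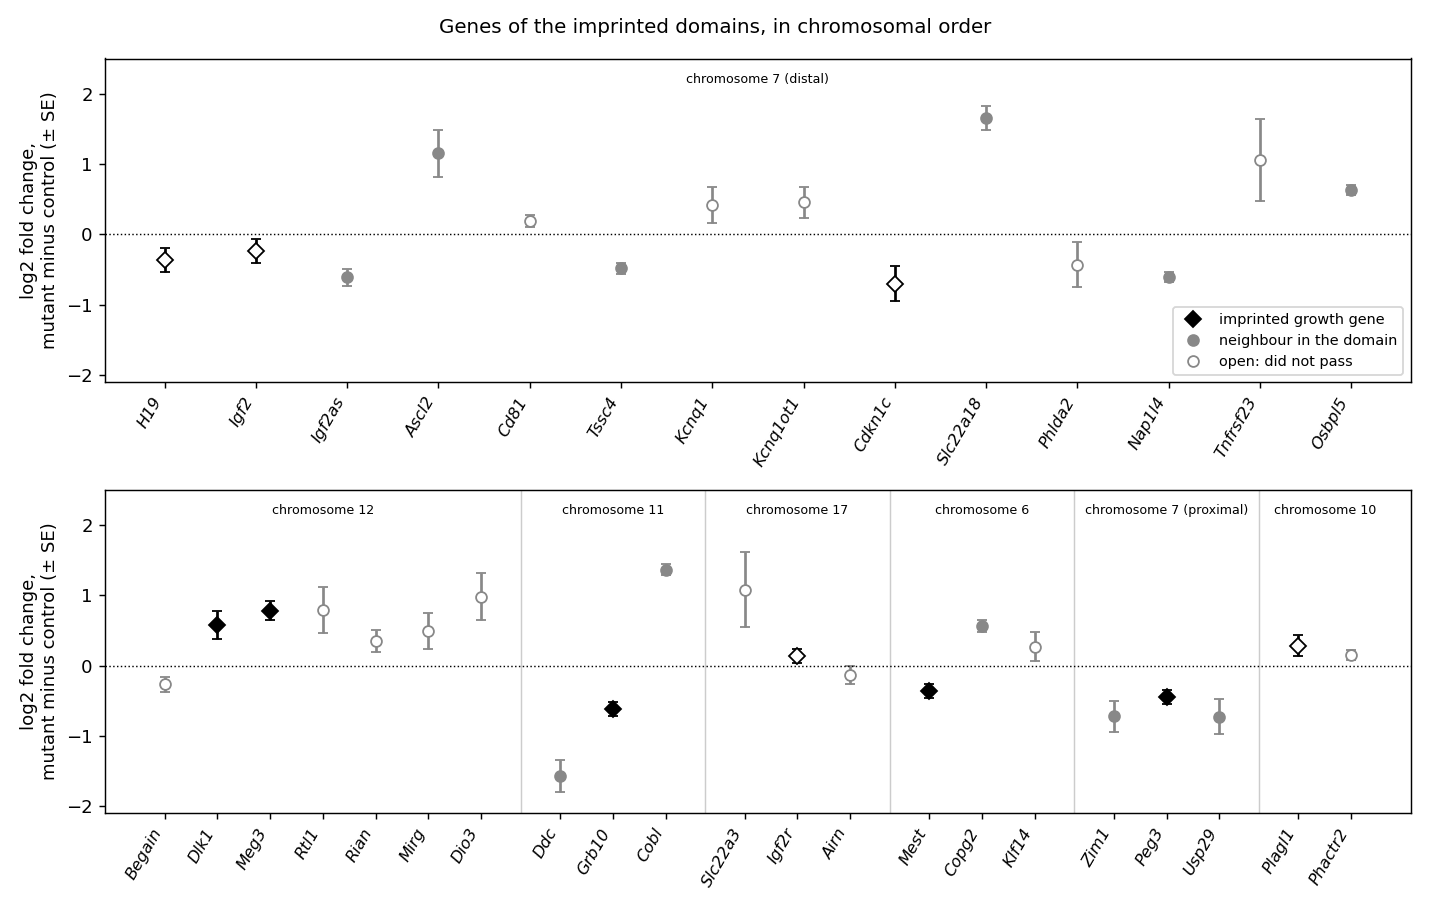
Log2 fold change of mutant over control (vertical axis, ± SE) for every tested gene of the imprinted domains, in chromosomal order and not to distance, with diamonds for the 10 growth genes, circles for neighbours and open symbols where the test was not passed. All 3 genes of the Peg3 domain are called lower, and Dlk1 and Meg3 are the genes called higher on chromosome 12. Of all tested genes, 21.7% are called lower and 24.1% higher. The calls of Zim1, Usp29 and Dlk1 are lost in part of the alternative settings.

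Plagl1, a zinc finger transcription factor that can regulate other imprinted genes, lies on chromosome 10 from 13060504 to 13131694 (plus strand). It was at 602, 875 and 735 CPM in the controls and at 925, 964 and 800 CPM in the mutants. Control 2 lay above mutant 3, and the log2 change of 0.28 (SE 0.15, edgeR adjusted p = 0.154) did not pass. A fit with the Y-linked covariate gave 0.6 (edgeR adjusted p = 0.0245). Its neighbour Phactr2 had 0.15 (SE 0.07, edgeR adjusted p = 0.114) and passed with library-size scaling (0.22, adjusted p = 0.028). Its relative Plagl2 rose by 0.44 (SE 0.1, edgeR adjusted p = 0.0102), which did not hold with the Y-linked covariate (0.24, adjusted p = 0.0988). Of 9 tested relatives of the growth genes, 4 rose (Plagl2, Dlk2, Cdkn1a and Cdkn2b) and 5 did not pass, which is 44.4% called beside 45.8% of all tested genes.

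Peg3, a zinc finger protein expressed from the paternal allele, lies on proximal chromosome 7 from 6703892 to 6730431 (minus strand). It was at 515, 489 and 413 CPM in the controls and at 327, 376 and 332 CPM in the mutants. Every mutant was below every control. The mean fell from 472 ± 53.1 to 345 ± 26.7 CPM (log2 change -0.45, SE 0.1, edgeR adjusted p = 0.0107), and 16 of 17 alternative settings kept the call. Both tested neighbours fell too, Zim1, a zinc finger gene of the maternal allele (-0.72, SE 0.22, edgeR adjusted p = 0.0318), and Usp29, a deubiquitinase gene of the paternal allele (-0.73, SE 0.25, adjusted p = 0.0454). Among all tested genes 21.7% were called lower. The call of Zim1 was lost without control 2 (adjusted p = 0.0935), mutant 1 (0.0733) or mutant 3 (0.0851). That of Usp29 was lost without control 1 (0.0859), control 2 (0.145), mutant 1 (0.0899), mutant 2 (0.077) or mutant 3 (0.0738), and by limma-voom (0.0662).

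Mest, which encodes an alpha/beta hydrolase of mesoderm, lies on chromosome 6 from 30723547 to 30748465 (plus strand). It was at 1482, 1818 and 1676 CPM in the controls and at 1333, 1292 and 1250 CPM in the mutants, with every mutant below every control. The mean fell from 1659 ± 169 to 1292 ± 41.6 CPM (log2 change -0.36, SE 0.1, edgeR adjusted p = 0.0226). The call was lost in 7 of 17 alternative settings, among them without control 2 (adjusted p = 0.0793), control 3 (0.0676), mutant 2 (0.0736) or mutant 3 (0.0763) and with the Y-linked covariate (-0.19, adjusted p = 0.238). Copg2, a coat protein gene that runs against Mest and shares 912 exonic bases with it, rose by 0.56 (SE 0.08, edgeR adjusted p = 0.00151). Klf14 had a log2 change of 0.27 (SE 0.2) and did not pass. On chromosome 17, Airn, the antisense RNA that silences Igf2r, had -0.13 (SE 0.13) and Slc22a3 had 1.08 (SE 0.53), and neither passed.

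The spread between libraries was itself uneven. Between the highest and the lowest control, the 10 genes differed by a median of 0.4 on the log2 scale, and between the mutants by 0.26. The range was wider in the controls for 9 of the 10, where this held for 46.8% of all tested genes. It held for 49.1% of the 764 tested genes whose mean log2 CPM was at least that of the lowest of the 10. The 744 genes named earlier were picked by edgeR's average log2 CPM instead. Control 1 was the lowest control for 9 of the 10 genes, and control 2 the highest for 8, against 41.6% and 31.4% of all tested genes and 44.5% and 42.7% of the 764 at least as high as the lowest of the 10. The widest range was that of Cdkn1c in the controls, 0.97, and Meg3 was the gene with the wider range in the mutants. These shares are descriptions of 3 libraries in each group.

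Likeness between genes was measured as the root mean square difference of log2 CPM over the 6 libraries, after each gene's own mean was subtracted. The nearest of the 10 genes to Igf2 was H19, and the nearest to H19 was Igf2, at a difference of 0.105. For Igf2r it was Plagl1 (0.101), for Dlk1 Plagl1 (0.201), for Meg3 Dlk1 (0.231), for Cdkn1c H19 (0.241), for Peg3 Grb10 (0.159), and for Grb10 and Mest each other (0.144). Among 13631 genes with an average log2 CPM of at least 1, H19 had rank 47 in nearness to Igf2, and Igf2 rank 53 to H19. Igf2r had rank 36 to Plagl1, Plagl1 rank 308 to Igf2r and 124 to Dlk1, and H19 rank 165 to Cdkn1c. Dlk1 had rank 657 to Meg3, Mest 947 to Grb10, and Grb10 1834 to Peg3 and 2031 to Mest. Genes outside the 10 were thus nearer in every case. The 5 nearest to Igf2 were B330016D10Rik (0.027), Tbc1d4 (0.04), Marveld1 (0.064), Arfgap3 (0.074) and B930041F14Rik (0.076), and none of them is among the imprinted genes listed here.

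Imprinted genes beyond the 10 were described from lists of 29 neighbours in the same domains, of which 27 were in the files, and 38 genes of other domains. Of the 59 that were tested, 9 rose, 15 fell and 35 did not pass, which is 40.7% called, near the 45.8% of all tested genes. Their median log2 change was -0.04. Without mutant 3, 9 were called lower. Peg12, a paternally expressed gene of the Prader-Willi domain, fell from a mean of 28.6 ± 2.88 CPM to 14.2 ± 0.372 CPM (-1.01, SE 0.11, edgeR adjusted p = 0.000557). Commd1, a copper homeostasis gene, fell by 0.5 on the log2 scale (SE 0.06). Ampd3, an AMP deaminase, rose from a mean of 4.56 ± 0.812 CPM to 13 ± 1.42 CPM (1.51, SE 0.18, edgeR adjusted p = 0.000863). The paraoxonase genes Pon3 (0.97, SE 0.16) and Pon2 (0.62, SE 0.11) rose, and so did Dcn, the proteoglycan decorin (0.71, SE 0.12).

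The pathway through which Igf2, Igf2r and Grb10 act was described from 24 genes, all tested. Of these 9 rose, 3 fell and 12 did not pass, a share called that stands beside 45.8% of all tested genes, with a median log2 change of 0.06. Without mutant 2 or mutant 3, 5 rose, and without mutant 3, 7 were called in all. The adaptors related to Grb10 moved the opposite way to it: Grb7 rose from a mean of 12.5 ± 3.73 CPM to 34.7 ± 2.25 CPM (1.48, SE 0.22, edgeR adjusted p = 0.00174) and Grb14 by 0.69 (SE 0.13). Igfbp2, a binding protein that holds IGFs outside the cell, rose by 0.76 (SE 0.13, edgeR adjusted p = 0.00282). M6pr, the other mannose 6-phosphate receptor beside Igf2r, rose by 0.28 (SE 0.06, edgeR adjusted p = 0.00777), a call lost with the Y-linked covariate (0.25, adjusted p = 0.0683). Of the genes whose proteins bind Igf2 mRNA, Igf2bp1 fell from a mean of 87.5 ± 9.46 CPM to 51.7 ± 4.86 CPM (-0.76, SE 0.1, edgeR adjusted p = 0.00141) and Igf2bp2 by 0.51 on the log2 scale (SE 0.08). Igf2bp3 (-0.21, SE 0.09) and Igf1r, the receptor that transmits the IGF2 signal (-0.17, SE 0.08), did not pass, and both were named after their values were seen.

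Factors that keep imprints through development, and chromatin regulators near them, made up the last list, of 21 genes with 18 tested. Of these 6 fell, 2 rose and 10 did not pass, which is 44.4% called beside 45.8% of all tested genes, with a median log2 change of -0.22. Without mutant 2 or mutant 3, 3 fell and 1 rose, and 1 rose without control 2 or control 3. Ezh2, the methyltransferase of Polycomb complex PRC2, fell from a mean of 135 ± 18.0 CPM to 72.9 ± 3.96 CPM (-0.89, SE 0.1, edgeR adjusted p = 0.000728), and Eed, another PRC2 subunit, fell too (-0.64, SE 0.08). Ctcf, the insulator protein that separates Igf2 from its enhancers on the maternal allele, fell by 0.34 on the log2 scale (SE 0.06, edgeR adjusted p = 0.00476). Uhrf1 (-0.39, SE 0.1) and Dnmt1 (-0.27, SE 0.07), which copy DNA methylation at replication, fell. Uhrf1 was not called without mutant 2 or 3 (adjusted p = 0.0582 and 0.0547), nor was Dnmt1 (0.0709 and 0.0556). Tet2, which oxidizes methylated cytosine, rose by 0.44 (SE 0.08, edgeR adjusted p = 0.00395).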

How the data were processed

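RNA-seq was run on 3 control and 3 mutant libraries of E14.5 mouse palate. The deposited files hold whole numbers per gene symbol, taken here as read counts. In mutant 1, 99.7% of those from 5 to 50 were even, and how this arose was not tested. HISAT2 is named in the headers of part of the files, and HISAT2, StringTie, mm9 and mm10 stand in the submitters' processing notes, without versions. The sources used here do not give the counting tool, whether it used strand, or its annotation.

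Genes passing edgeR's filterByExpr were scaled by TMM and tested across all 16604 with edgeR 4.0.16's quasi-likelihood test (R 4.3.3) and Benjamini-Hochberg adjustment at 0.05, mutant against control, with no covariate. Levels are TMM-scaled CPM. The fit was tested on simulated data. Ratios between 2 genes were compared by an exact two-sided permutation test over libraries. Coordinates, lengths and GC content came from GENCODE M21 on GRCm38, which matched 23074 of 23420 symbols (98.52%), and promoter windows from RefSeq on GRCm38.p6. Alternatives were library-size scaling, DESeq2 1.42.0, limma 3.58.1 (voom), other low-count filters, a 1.5-fold threshold (glmTreat), the replicate number as a block, each library left out, replicate 1 of both groups left out, a Y-linked covariate, and a GC and length correction.

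The genes and lists were chosen with earlier results of these data known. Of the listed genes, those with the smallest p among the called, up to 6 a list, are named, with every tested neighbour of the 10 genes. The 5 genes nearest to Igf2 are named by the distance given in the text. No sequence window was used for H19 or Cdkn1c.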

Additional observations from a re-analysis of the deposited data

How the results depend on the processing

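Of 1069 values of single genes under the alternatives (63 genes), 939 kept their direction and side of the threshold, 36 gained a call, 86 lost it and 8 turned sign. Those that turned did so with the Y-linked covariate for Igf2 (0.12), Airn (0.01), Phlda2 (0.09), Arfgap3 (0.18), B330016D10Rik (0.05), Marveld1 (0.04) and Tbc1d4 (0.14), and Igf2r did so when GC content and length were corrected without centring (-0.06). The cause was not tested.

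Against the 1.5-fold threshold, which is stricter by construction, 2472 of all genes were called in place of 7606. It called 0 of the 10 growth genes higher and 0 lower, 6 other imprinted genes (4 higher, 2 lower), 1 IGF pathway gene (1 higher, 0 lower) and 1 imprint maintenance gene (0 higher, 1 lower). With the Y-linked covariate 5019 of all genes were called (2710 higher, 2309 lower). Of the growth genes 4 were then higher and 2 lower, with 8 other imprinted genes lower and 1 maintenance gene higher. DESeq2 called 5 growth genes lower and 2 higher, where it called 4010 of all 16604 genes lower and 4381 higher. The centred GC and length correction called 1 growth gene and 1 maintenance gene higher, beside 4021 of all 16481 genes. Uncentred, it called 1 of each higher, and 6 growth, 6 IGF pathway and 10 maintenance genes lower, beside 3286 higher and 5200 lower of all genes. Without replicate 1 of both groups, 1 growth gene was higher and 6 IGF pathway genes lower, beside 4595 higher and 4509 lower of all 16824 genes.

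With 1 library left out, 3 to 5 growth genes were called (1 to 2 higher, 2 to 4 lower). The other imprinted genes gave 18 to 25 calls (9 to 15 lower), the IGF pathway 7 to 12 (5 to 9 higher), and the maintenance genes 4 to 10 (1 to 2 higher, 3 to 8 lower). The log2 difference of the Meg3 to Dlk1 ratio ran from -0.03 to 0.31.

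Replicate numbers are shared by the groups. Same-numbered libraries had correlations of their deviations of 0.112, 0.118 and 0.068, and the other pairs ran from -0.124 to 0.077. Whether same-numbered libraries were paired cannot be settled from these values. Control 3 correlated more with mutant 2 (0.077). With the replicate block 7022 genes were called (3720 higher, 3302 lower), and 1 growth gene and 1 maintenance gene were higher. Dlk1 (adjusted p = 0.0508) and Mest (0.0515) lost their calls and Cdkn1c gained one (0.0162).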
